A study of Homo sapiens with 16 samples.

Results

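The first round of acRIP in UM-UC-3 gave 2 peak lists, 1 from cells with a control siRNA and 1 from cells with an siRNA against NAT10, and every row of both was taken. There were 685 control peaks, which fell in 620 genes, and 666 NAT10-si peaks, which fell in 625 genes, out of 28357 peaks in the 4 lists of the series. UM-UC-3 is an established human bladder cancer cell line, and the series holds 16 samples of it and of T24, a further bladder cancer line. In acRIP, RNA carrying the modified base N4-acetylcytidine (ac4C) is pulled down with an antibody, and the pulled-down RNA is set against the input RNA. Both arms were transfected with 75 nM siRNA in Lipofectamine RNAiMAX and collected at 48 h. The arms differed in the siRNA alone, and the siRNA against NAT10 was 1 sequence. Which arm and round a first-round list belongs to is read from the list's own name. Expression values come from RNA-seq replicates 2 and 3 of each arm, which are other libraries than the first-round acRIP samples.

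NAT10 is the acetyltransferase that writes ac4C. It works with small nucleolar RNAs on 18S ribosomal RNA and with the adaptor THUMPD1 on transfer RNA, and it has been reported to acetylate messenger RNA, with effects on stability and translation. A peak in an acRIP list marks a stretch of transcript that was enriched over input, not a single modified base.

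The treatment itself is given by the siRNA sequences in the sample labels, shown because the arms differ in nothing else that is stated. Capitals mark the 3′ overhang of 2 thymidines.
Control siRNA: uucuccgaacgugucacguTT
NAT10 siRNA: ccaucucucgcaucuauuuTT

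Peaks can be read as sequence where they lie within a RefSeq promoter window of GRCh38.p14, and 30 bases from the middle of 1 such peak are shown to make an enriched transcript concrete. The control list placed a peak in PARG, which encodes the glycohydrolase that removes poly(ADP-ribose), at chr10:49941855-49941975 on the minus strand, with a fold of 12.7.
PARG, chr10:49941900-49941929, minus strand: gtgccagtggaagagggaaggcaggcgagt
The window belongs to the start of TIMM23B-AGAP6 on the other strand. The whole peak of 121 bases was searched on both strands for the motif CNNCNNCNNCNN, with overlaps counted, because C-rich repeats have been described around ac4C. It held 0 starts on its own strand and 4 on the other, so no letters of the printed stretch are in capitals. In all, 5 single-block peaks lay within such windows, of which 2 held the motif 0 times on their own strand and 3 held it 3 to 8 times. Of these 3, the peaks in RHOBTB3 and ENSG00000250240 cover 1 place on opposite strands. Of RefSeq promoter windows cut to 121 bases, 46.2% held the motif on the listed strand and 45.2% on the other. Cut to 147, 151 and 181 bases, the lengths of the other peaks, 52.3%, 53.2% and 59.0% held it on the listed strand. The match is a description only. PARG RNA was at 4.99 and 5.37 FPKM (fragments per kilobase of gene, scaled to the library's total) in control replicates 2 and 3 and at 4.08 and 4.06 FPKM in the NAT10-si libraries.

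The question of the comparison was whether the places carrying ac4C differ once NAT10 is lowered. The siRNA lowered the mRNA of its target in the RNA-seq libraries, which are not the first-round acRIP samples. NAT10 mRNA was at 19.0 and 17.6 FPKM in control replicates 2 and 3. The NAT10-si libraries held 4.04 and 3.84 FPKM, with no overlap between arms. This is a log2 change of -1.97 (standard error 0.06, limma adjusted p = 0.00011). THUMPD1 went from 5.30 and 5.79 FPKM to 2.32 and 2.22 FPKM (limma adjusted p = 0.00044). Neither gene carried a first-round peak in either arm. The labels do not say whether the libraries came from separate cultures, so p-values reflect only how far these libraries differ, which could be technical spread. In bulk RNA, fewer cells of a type and less RNA per cell cannot be told apart. Markers of the tissue were mixed. Of 12 luminal urothelial markers, the keratins KRT8 and KRT18 were at 23.2 to 26.2 and 53.0 to 85.8 FPKM, while UPK3A was at 0 and UPK2 at 1.62 to 2.48 FPKM. Of 6 basal markers, CD44 was at 103 to 106 FPKM and KRT5 at 0.0123 to 0.0652 FPKM. Of 8 mesenchymal markers, VIM was at 458 to 672 FPKM, while FN1 was at 2.47 to 4.80, ZEB2 at 0.455 to 0.491 and TWIST1 at 0 FPKM. The 4 libraries gave between 17204811 and 35595546 recovered reads.

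Both arms gave lists of almost the same length, and few peaks of either list overlapped a peak of the other. Of the control peaks, 22 of 685 (3.21%, Wilson 95% interval 2.13% to 4.81%) overlapped a NAT10-si peak on the same strand by at least 1 base. Of the NAT10-si peaks, 21 of 666 (3.15%, interval 2.07% to 4.77%) overlapped a control peak. All intervals of shares cover counting error over peaks only, and with 1 list per arm no difference between arms has a replicate or a test. In the replicate round, where the lists are far longer, 7581 of 10253 control peaks (73.9%) overlapped a peak of the other arm. Of the first-round control peaks, 41 of 685 (5.99%) overlapped a replicate-round control peak. For NAT10-si, 83 of 666 (12.5%) overlapped a replicate-round NAT10-si peak. Low overlap was thus also found between rounds of the same arm. By gene, 48 were in both first-round lists, which is 7.74% of the control genes and 7.68% of the NAT10-si genes. Of all genes, 1.06% had a control and 1.07% a NAT10-si peak, and of tested genes 3.03% and 3.48%. In 21 of these 48 genes the peaks themselves overlapped. In the other 27 the nearest peaks lay between 58 and 108593 bases apart, with a median of 4406 bases, and in 3 of them the gap was at most 1000 bases. A gene in both lists was thus not always a gene with the same peak.

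The genes with an overlapping peak in both arms fall into several kinds. CLSPN encodes claspin, which carries the replication checkpoint signal to CHK1, and its peaks lay at chr1:35764555-35764705 in control and chr1:35764286-35764585 in NAT10-si. MKI67, the gene of the proliferation marker Ki-67, had overlapping peaks at chr10:128107156-128107426 and chr10:128106976-128107246, each 271 bases wide. PPP1R10, a regulatory subunit of protein phosphatase 1, and KHSRP, a protein that binds AU-rich RNA, had peaks of several exon blocks in both arms. The KHSRP peak had the same outer ends in both lists, chr19:6416644-6417014, with 3 blocks. BMS1, a GTPase of small ribosomal subunit assembly, counted as shared through 1 base. SRRM2, a spliceosome scaffold, FLNA, the actin crosslinker filamin A, ZRANB2, ABI2 and MAP2K7 were further expressed genes of the nuclear genome with a shared peak. MT-RNR2, MT-ND2 and MT-ND4 of the mitochondrial genome also overlapped.

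A further set of shared peaks lay in genes with little or almost no RNA in this line. F5, coagulation factor V, was at 0, 0, 0.0221 and 0 FPKM in control replicates 2 and 3 and NAT10-si replicates 2 and 3, yet both lists held a peak ending at chr1:169540964. CD68, a macrophage glycoprotein, was at 0.125, 0.163, 0.0482 and 0.204 FPKM and carried a peak with a fold of 5250.0 in control and of 22.3 in NAT10-si. ENSG00000264772 overlaps the CD68 peaks on the same strand in both lists, so reads there cannot be assigned to 1 of the 2 genes. DHH, the ligand desert hedgehog, and ENSG00000257346 on the opposite strand had peaks with folds of 41.2 in control. The same pair had folds of 1840.0 and 1730.0 in NAT10-si. MUC3A, a membrane mucin, and ODAD1, a ciliary dynein docking gene, were also shared while staying at or below 0.208 FPKM in all 4 libraries. ERICH6B, which passed the expression filter at 0.886 to 1.48 FPKM (limma adjusted p = 0.16), had a peak with a fold of 222.0 in control and of 15000.0 in NAT10-si. Of 16 blood and immune genes, CD68 among them, 3 reached the expression filter and 4 were at 0 in every library. Their summed level was 1.91 and 1.07 FPKM in the control libraries and 43.9 and 16.7 FPKM in NAT10-si replicates 2 and 3. All 3 tested genes of this list were higher, with a median log2 change of 3.24, beside 27.9% higher of all 14004 tested genes. The 6 immune markers summed to 0.779 and 0.0560 against 20.8 and 5.56 FPKM. Their part in the CD68 peaks was not tested.

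The fold of a peak is the authors' ratio of immunoprecipitate to input, and it cannot be set side by side between the lists. Most control folds sat on whole multiples of 1 value, 3.17, and a smaller share of NAT10-si folds on multiples of 9.37. Of 406 control peaks between 3 and 25 steps, 376 were on a whole multiple within the rounding of the listed value. Of 272 such NAT10-si peaks, 159 (58.5%) were. The 30 control peaks at 7 steps, that is at a fold of 22.2, all had the same log10 p of -7.89. At the commonest control fold, 19.0, 39 of 44 peaks shared 1 log10 p. At the commonest NAT10-si fold, 37.5, 13 of 23 did. The median fold was 44.3 in control and 56.2 in NAT10-si, but counted in steps it was 14.0 and 6.0. The order of the arms is thus opposite on the 2 scales. Folds are used below only within a list.

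**Figure D1:**
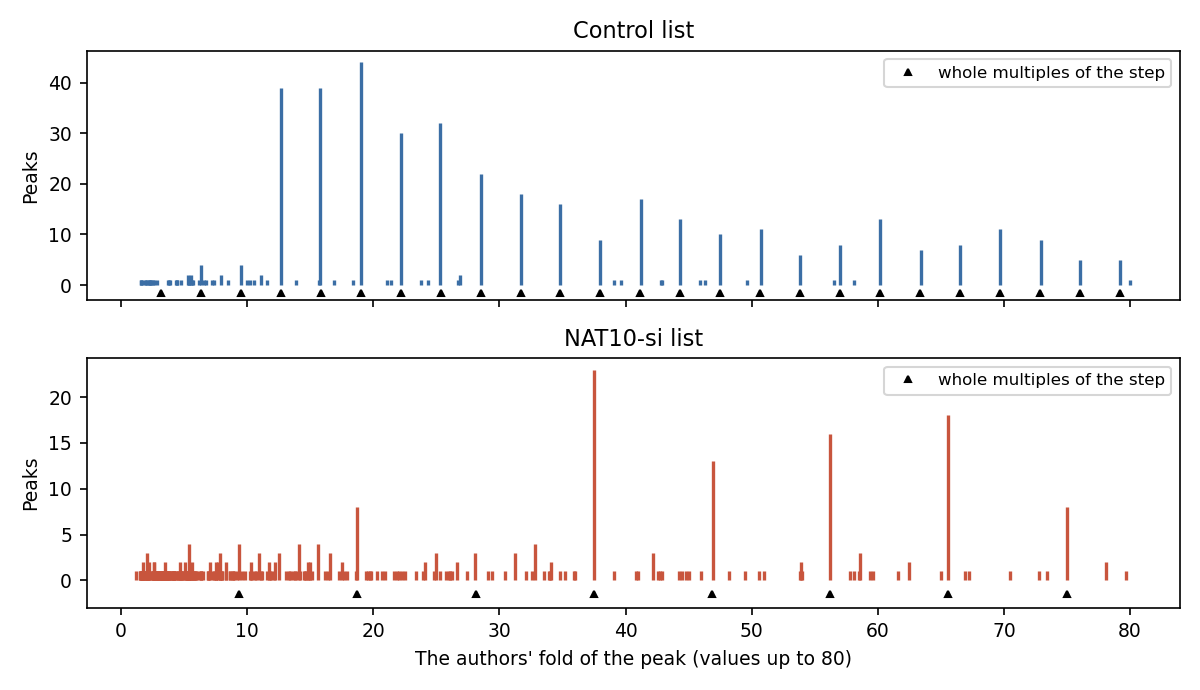
Number of peaks (vertical axis) at each value of the authors' fold up to 80 (horizontal axis) in the control list (upper panel) and the NAT10-si list (lower panel); triangles mark whole multiples of the step, 3.17 and 9.37. Control folds stand almost wholly on the multiples, and 44 peaks share the fold of 19.0, while many NAT10-si folds under 30 lie between them.

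Within the control list the highest folds belonged to CD68 and BANF1, a chromatin protein of the nuclear envelope with a fold of 3080.0 and 111 and 111 FPKM in the control libraries. Others among the highest were ENSG00000264772 at 2410.0, CYLD-AS1 at 1280.0, ENSG00000273271 at 1240.0 and KMT2D, a histone H3 lysine methyltransferase, at 1160.0, and further genes of this rank are not reported here. CYLD-AS1 is antisense to CYLD and was at 0.513 and 0.434 FPKM. Reads of a gene and its antisense partner cannot be told apart where strand was not used in counting, and no source used here states it. Within the NAT10-si list the highest folds after ERICH6B were in MEGF11 (11700.0), SCN3A (7310.0), PHF21A (5750.0), CDK5RAP2 (4880.0), MRPS6 (4160.0), WSB2 (3660.0) and STRADB (3620.0). SCN3A, a neuronal sodium channel, was at 0 FPKM in 3 of the 4 libraries. PHF21A, a reader of unmethylated histone H3, CDK5RAP2, a centrosome protein, and WSB2, a substrate receptor of a ubiquitin ligase, were expressed at 12.5, 7.02 and 28.9 FPKM in NAT10-si replicate 2. No gene but CD68, ENSG00000264772 and ERICH6B among those named here for the highest folds was in both lists.

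Several genes carried many peaks, mostly in the control list. MUC4, a membrane mucin with a long repeat domain, had 11 control peaks and 0 NAT10-si peaks. They lay between 195778840 and 195786698 on chromosome 3, a stretch of 7859 bases, and together covered 4451 bases with folds of 22.2 to 767.0. MUC4 RNA was near 0 throughout, at 0.0179 and 0 FPKM in control and 0.166 and 0.0525 FPKM in NAT10-si. MUC3A had 3 control peaks, 1 of them the widest of both lists at 1528 bases, and 1 NAT10-si peak. Repeats can collect reads from several places, so the position of mucin peaks is uncertain. ENSG00000280407 had 4 control peaks, and SIRPA, the receptor of CD47, KIAA2026, MT-RNR2 and MT-ND5 had 3 each. In the NAT10-si list TMEM41A and ABI2 had 3 peaks each and no gene had more. Genes with a single peak made up 92.1% of control genes and 93.8% of NAT10-si genes. Overlapping peaks within a list also occurred: merging spans on either strand left 652 separate places of 685 peaks in control and 622 of 666 in NAT10-si. Of the overlapping pairs, 20 of 35 in control and 23 of 45 in NAT10-si were on opposite strands, so those pairs describe 1 place each.

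Peaks of the mitochondrial genome were concentrated in the control list. It held 15 such peaks (interval 1.33% to 3.58% of the list) and the NAT10-si list 3 (0.451%, interval 0.153% to 1.32%). Of 15 mitochondrially encoded messenger and ribosomal RNA genes, 10 had a control peak and 3 a NAT10-si peak, all 3 also among the 10. Over all genes, 1.06% had a control and 1.07% a NAT10-si peak, and above 100 FPKM 10.4% and 9.43% did. The control peaks fell in subunits of complex I (MT-ND1, MT-ND2, MT-ND4, MT-ND5, MT-ND6), of cytochrome c oxidase (MT-CO1, MT-CO2, MT-CO3) and of ATP synthase (MT-ATP6), and in the large ribosomal RNA MT-RNR2. Their control folds ran from 1.54 in MT-CO1 to 42.9 in MT-ND6, which is the gene of this group on the light strand. MT-CYB, MT-ND3, MT-ND4L, MT-ATP8 and MT-RNR1 had no peak in either list.

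RNA of these genes differed between arms as well. MT-CO2 was at 7059 and 7097 FPKM in control and at 4746 and 4888 FPKM in NAT10-si (log2 change -0.56, standard error 0.04, limma adjusted p = 0.00043). MT-CO3 went from 6359 and 6548 FPKM to 4630 and 4805 FPKM (log2 change -0.45, limma adjusted p = 0.00085). MT-RNR2 went the other way, from 2656 and 2716 FPKM to 6591 and 7127 FPKM (log2 change 1.35, limma adjusted p = 0.00014). For each of the 3 genes the arms did not overlap. MT-CO1, at 10205 and 10211 against 9922 and 10092 FPKM, did not pass (limma adjusted p = 0.55). In all, 10 of the 15 were lower and 3 higher, with a median log2 change of -0.28. Over all 14004 tested genes 27.9% were lower and 27.9% higher, 55.8% in all, with a median of 0.01. Nuclear copies of mitochondrial genes can share reads with them, and the part of these level changes in the difference in peaks was not tested.

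Outside the mitochondrial genome the chromosomes took like shares of both lists, and the intervals of the arms overlapped for each. Chromosome 17 held 59 control and 40 NAT10-si peaks, chromosome 10 held 31 and 17, chromosome 2 held 36 and 54, and chromosome 12 held 39 and 52.

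**Figure D2:**
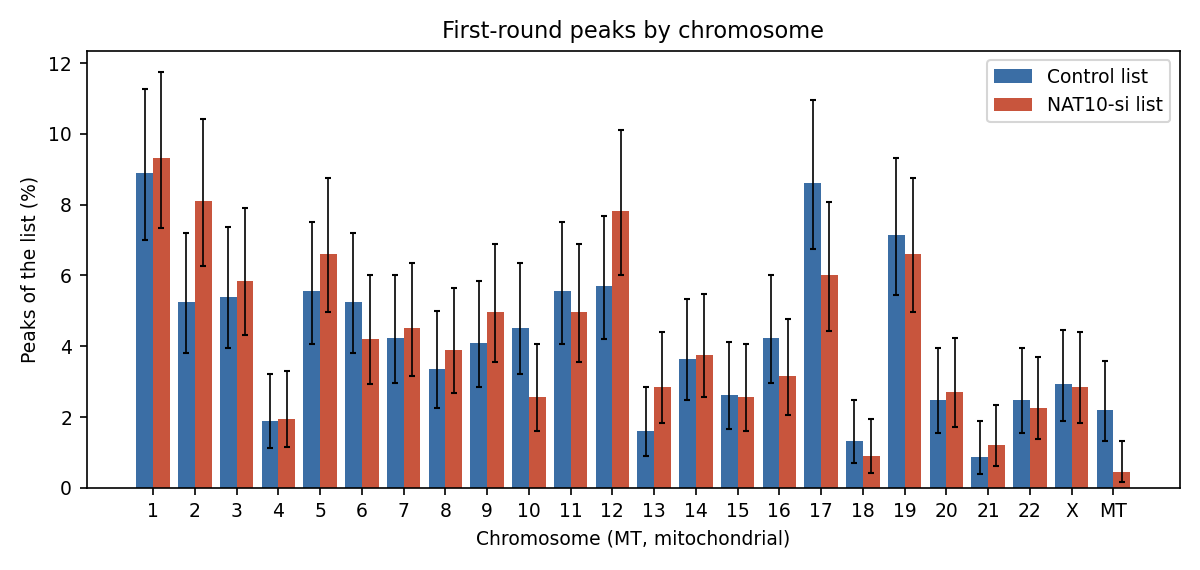
Share of the peaks of each first-round list (vertical axis, percent) on each chromosome (horizontal axis), with Wilson 95% intervals over peaks. The mitochondrial genome, with 15 control and 3 NAT10-si peaks, is the chromosome where the intervals do not overlap.

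Width, the summed length of the exon blocks, had a median of 181 bases in both lists, and the interquartile range was 174 to 211 in control and 180 to 211 in NAT10-si. Exactly 180 or 181 bases were covered by 246 control peaks (35.9%) and 261 NAT10-si peaks (39.2%). Widths over 300 bases made up 8.18% and 6.01%. The widest control peaks were in MUC3A (1528 bases), MUC4 (1081 bases) and NPIPB5 (570 bases). In NAT10-si they were in LINC02604 (570 bases), GOLGA6L25 (537 bases) and GOLGA6L24 (508 bases). NPIPB5 and the GOLGA6L genes belong to families of near-identical copies, so their peaks are uncertain.

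About a like share of each list spanned a splice junction. More than 1 block, that is a peak split over exons, was found for 232 control peaks (33.9%, interval 30.4% to 37.5%) and 239 NAT10-si peaks (35.9%, interval 32.3% to 39.6%). Among peaks at or above the median fold of their list the order was opposite, with 34.2% in control and 29.9% in NAT10-si. In the later replicate round, where 1 list per arm is also given, the shares were 15.5% and 21.7%. Each list held 2 peaks of 5 blocks. They included those in NCOR1, a nuclear receptor corepressor, in control and in NOL10, a nucleolar protein, in NAT10-si. Peaks of 4 blocks included those in DOCK4 and ERO1B in control and those in KRBA1, C1S and ABR in NAT10-si. The ABR peak covered 390 bases over a span of 23549 bases.

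Peaks were spread along genes with a lean to the end. Place was taken along the genomic length of the gene, introns included, and not along the transcript. Of 607 control peaks placed within their RefSeq gene, 248 (40.9%, interval 37.0% to 44.8%) had their midpoint in the last 20% of the gene. Of 591 NAT10-si peaks, 255 (43.1%, interval 39.2% to 47.2%) did. In the replicate round the last 20% of the gene held 79.2% and 72.3%. Within 500 bases of the gene end lay 11.4% of control and 9.81% of NAT10-si peaks, against 56.4% and 47.2% in the replicate round. Within 500 bases of the gene start lay 11.0% and 10.2%, against 3.82% and 5.91%. Peaks of the replicate round thus sat mainly at the 3′ end, and those of the first round did not. Single-block peaks were in the last 20% in 51.0% and 52.7% of cases, and multi-block peaks in 23.1% and 26.9%. In genes under 20 kb the share in the last 20% was 30.4% in control and 25.1% in NAT10-si, so the order of the arms was opposite there.

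**Figure D3:**
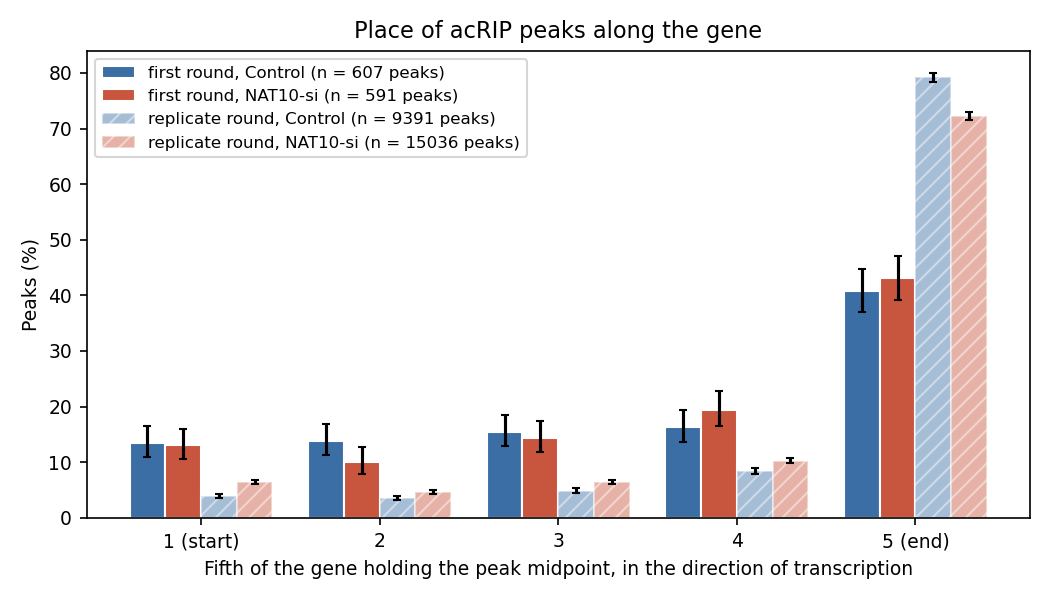
Share of peaks (vertical axis, percent) whose midpoint lies in each of 5 equal parts of the RefSeq gene from start to end (horizontal axis), for both arms and both rounds, with Wilson 95% intervals over peaks. The first-round arms stand at 40.9% and 43.1% in the last part, and the replicate-round arms at 79.2% and 72.3%.

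Few first-round peaks returned in the longer replicate-round lists. Overlap with the replicate-round control list was found for 41 control peaks (5.99%), and with the replicate-round NAT10-si list for 87 (12.7%). For NAT10-si peaks the counts were 41 (6.16%) and 83 (12.5%). By gene, 47.4% of first-round control genes were in the replicate-round control list and 58.55% in the replicate-round NAT10-si list. For first-round NAT10-si genes these shares were 52.3% and 65.9%. Those lists held 8057 and 11087 of all 58302 genes. Of genes at 1 FPKM or more in the same arm, they held 6926 of 13675 in control and 9095 of 14216 in NAT10-si. For both first-round arms the overlap was larger with the longer of the replicate-round lists.

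The kind of gene differed between the arms. Of peaks with a RefSeq entry, 88.5% in control (interval 85.8% to 90.8%) and 94.2% in NAT10-si (interval 92.1% to 95.8%) lay in protein-coding genes. Long noncoding RNA genes held 38 control and 18 NAT10-si peaks (6.15% and 2.97%), and pseudogenes 32 and 16 (5.18% and 2.64%). In the replicate round the coding shares were 91.0% and 90.0%. NEAT1, the architectural RNA of paraspeckles, had peaks in both first-round lists, 8269 bases apart, and its level rose from 35.0 and 37.0 FPKM to 85.4 and 88.8 FPKM (limma adjusted p = 0.00014).

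Genes with a peak were expressed more often in the NAT10-si list. A mean of at least 1 FPKM in the libraries of the same arm was reached by 422 of 620 control genes (68.1%, interval 64.3% to 71.6%) and by 486 of 625 NAT10-si genes (77.8%, interval 74.3% to 80.8%). Over all 58302 genes of the table the shares were 23.5% and 24.4%. In the replicate round the order was opposite, at 86.0% in control and 82.0% in NAT10-si. The median level of a peak gene was 4.33 FPKM in control and 7.13 FPKM in NAT10-si. Genes listed at 0 FPKM in both libraries of the arm were 56 of the control genes (9.03%) and 52 of the NAT10-si genes (8.32%). Above 0 and up to 0.1 FPKM lay 82 control and 38 NAT10-si genes, and above 10 and up to 100 FPKM lay 172 and 227.

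Genes of high level were listed far more often than genes of low level. A control peak was listed for 1.06% and a NAT10-si peak for 1.07% of all genes. Above 100 FPKM these shares were 10.4% and 9.43%, and at 0 FPKM 0.196% and 0.180%. Folds were lowest for the genes of highest level. The median fold of control peaks was 47.5 for genes at 0 FPKM, 69.7 above 0 and up to 0.1 FPKM, and 10.2 above 100 FPKM. In NAT10-si these medians were 98.4, 178 and 5.43. Among the genes of highest level in NAT10-si, beside the mitochondrial ones, GAPDH had a fold of 1.77 and EEF1A1, a translation elongation factor, one of 6.33. GAPDH was in both lists, with peaks 58 bases apart.

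**Figure D4:**
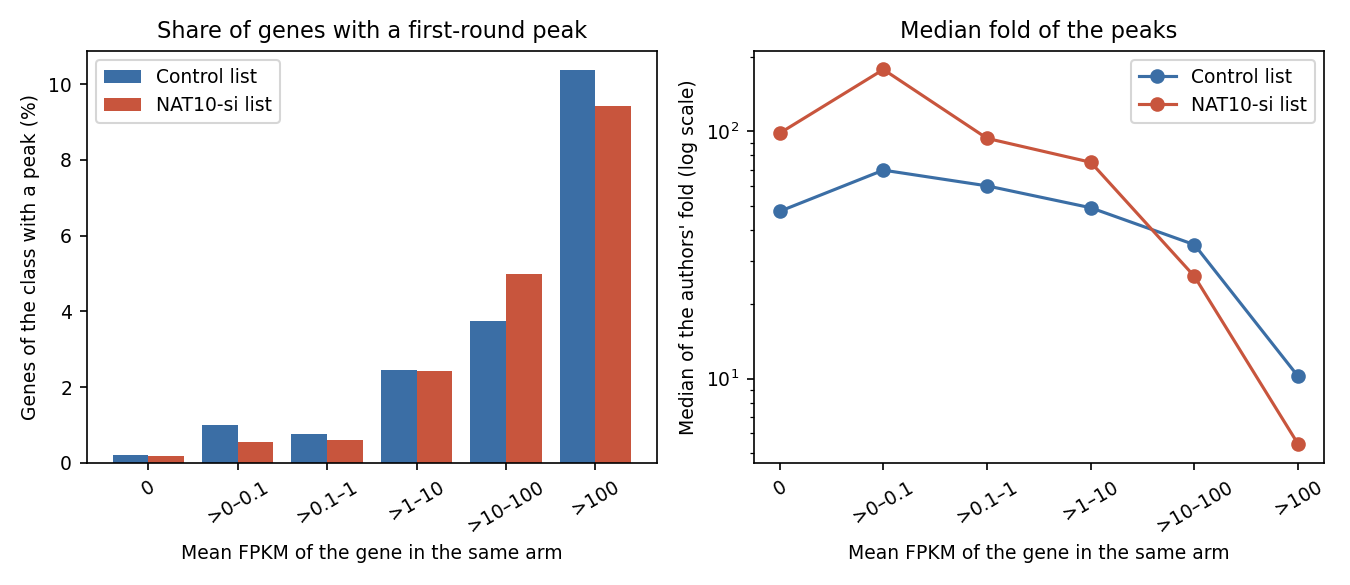
Left, share of genes of each FPKM class (horizontal axis, mean of the same arm) with a first-round peak (vertical axis, percent); right, median of the authors' fold of the peaks in each class (vertical axis, log scale). The share is largest above 100 FPKM, at 10.4% in control and 9.43% in NAT10-si, and the median folds are lowest there.

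Genes that belong to other tissues also carried peaks. Of 25 neuronal genes, GRIN2B and DPP6 had control peaks, and SCN3A, GRIA2 and CNTNAP2 had NAT10-si peaks. GRIN2B and GRIA2 encode glutamate receptor subunits, and GRIA2 was at 0, 0, 0 and 0.00626 FPKM while its peak had a fold of 1130.0. MYH2, a skeletal muscle myosin, had a control peak with a fold of 133.0. Olfactory receptor genes held control peaks in OR1I1 and OR4S1 and NAT10-si peaks in OR2F1, OR2M3 and OR52P1. All of these but OR2M3 were at 0 FPKM in all 4 libraries, and OR2M3 was at 0.0605 to 0.101 FPKM. These are 2 and 3 of 498 members of large families of other tissues, beside 1.06% and 1.07% of all genes with a peak, and 406 of the 498 were at 0 in every library. Of 11 germ line genes, 0 had a peak, and of 15 muscle genes MYH2 was the one with a peak. RNA levels of the first-round samples themselves were not analysed here.

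DNA repair and damage signalling genes, the process the study set out from, carried peaks about as often as other genes in NAT10-si, and the control count was 2. Over 5 lists with 134 genes, 128 of them tested, 2 had a control peak (CLSPN and MDC1) and 4 a NAT10-si peak (CLSPN, USP1, SLX4 and ERCC2). These are 1.56% and 3.13% of the tested members, beside 3.03% and 3.48% of all 14004 tested genes. No base excision, mismatch repair or end joining gene had a peak in either arm. MDC1, the adaptor that reads phosphorylated H2AX, went from 22.0 and 20.03 FPKM to 14.1 and 13.2 FPKM (log2 change -0.59, limma adjusted p = 0.0014). CLSPN went from 10.1 and 8.95 FPKM to 3.44 and 3.55 FPKM (log2 change -1.22, limma adjusted p = 0.00028). ERCC2, a helicase of nucleotide excision repair, was at 13.2 and 12.3 against 14.6 and 14.8 FPKM (log2 change 0.19, limma adjusted p = 0.029). SLX4, a scaffold of structure-specific nucleases, was at 3.67 and 3.55 against 2.81 and 3.07 FPKM (log2 change -0.23, limma adjusted p = 0.042). Across the tested repair genes 80 were lower and 11 higher, with a median log2 change of -0.34, beside 27.9% lower and 27.9% higher of all tested genes.

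Among genes reported as NAT10 targets, AHNAK, a giant scaffold protein, had a control peak with a fold of 28.5 and none in NAT10-si. Its RNA went from 105 and 96.2 FPKM to 66.9 and 60.2 FPKM (log2 change -0.66, limma adjusted p = 0.0013). In the replicate round AHNAK was listed in both arms. BCL9L, SOX4 and AKT1 had no first-round peak. Of 89 cytosolic ribosomal protein genes, those with a control peak included RPL7A and RPS4X, and RPS19 had a NAT10-si peak. Of 64 replication-dependent histone genes, H2AC14 had a control peak and H2BC4 a NAT10-si peak.

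Expression of the peak genes was then compared between arms. Over all 14004 tested genes 27.9% were called higher and 27.9% lower in NAT10-si at a limma adjusted p under 0.05, 55.8% in all, with a median log2 change of 0.01. Of the 385 tested genes with a peak in the control list only, 83 (21.6%) were higher and 142 (36.9%) lower, with a median of -0.06. Of the 448 with a peak in the NAT10-si list only, 115 (25.7%) were higher and 176 (39.3%) lower, with a median of -0.08. Of the 40 in both lists, 10 were higher and 15 lower, with a median of -0.05. Without control replicate 2 or 3 the 10 became 5 and 6. Lower calls were thus more frequent than over all genes for peak genes of either arm, and both arms gave like values. Peak genes passed the expression filter more often than other genes, and their levels are not matched to the background.

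The genes with a control peak only that fell the most were SFPQ, RCC1, DUS3L, MYBL2, SAPCD2 and APC. SFPQ, a splicing factor of paraspeckles, went from 45.5 and 45.8 FPKM in control to 17.8 and 17.1 FPKM in NAT10-si (log2 change -1.34, standard error 0.04, limma adjusted p = 0.00011). RCC1, the exchange factor of Ran, went from 29.9 and 30.3 to 12.6 and 13.1 FPKM. DUS3L, a dihydrouridine synthase acting on transfer RNA, went from 10.0 and 9.49 to 4.10 and 4.36 FPKM. MYBL2, a transcription factor of the cell cycle, and APC, the brake on Wnt signalling, had log2 changes of -0.95 and -0.90. In each of these genes both NAT10-si libraries lay below both control libraries, as the rule of choice required.

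Those with a control peak only that rose the most were HSPA1A, RGS3, TNFSF9, CCDC18-AS1, PIGZ and STC2. HSPA1A, an inducible HSP70 chaperone, was at 6.93 and 5.90 FPKM in control and at 37.2 and 39.4 FPKM in NAT10-si (log2 change 2.41, limma adjusted p = 0.00011). It has a near-identical copy, so its reads are uncertain. TNFSF9, the ligand of 4-1BB, went from 4.56 and 4.57 to 12.1 and 14.4 FPKM, and STC2, a secreted glycoprotein, from 6.82 and 6.36 to 14.4 and 14.7 FPKM. Rises and falls were each picked by rule, so both directions among these named genes follow from the choice. Over the whole class of 385 tested genes, 83 (21.6%) were higher and 142 (36.9%) lower, beside 27.9% each of all tested genes.

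Among genes with a NAT10-si peak only, the largest falls were in PRKAR2A, SRSF3, USP1, MCM2, CDC6 and STARD7. PRKAR2A, a regulatory subunit of protein kinase A, was at 15.5 and 14.9 FPKM in control and at 4.48 and 4.23 FPKM in NAT10-si (log2 change -1.60, standard error 0.06, limma adjusted p = 0.00013). MCM2, part of the replicative helicase, was at 55.6 and 53.3 FPKM in control and fell by 1.40 on the log2 scale. CDC6, which loads it, went from 16.2 and 15.6 to 5.43 and 5.77 FPKM. USP1, the deubiquitinase of FANCD2 and PCNA, went from 32.1 and 34.1 to 12.4 and 11.2 FPKM. These genes had a peak listed in NAT10-si although their RNA was lower there.

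The largest rises with a NAT10-si peak only included ENSG00000226380, H2BC4, KLHL24, JUN and LGALS3BP. JUN, a subunit of AP-1, went from 130 and 126 to 279 and 295 FPKM (log2 change 1.16, standard error 0.05, limma adjusted p = 0.00014). H2BC4, one of many similar histone H2B genes, went from 1.05 and 1.47 to 7.09 and 7.71 FPKM. In each of these 5 genes the arms did not overlap, as the rule of choice required.

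**Figure D5:**
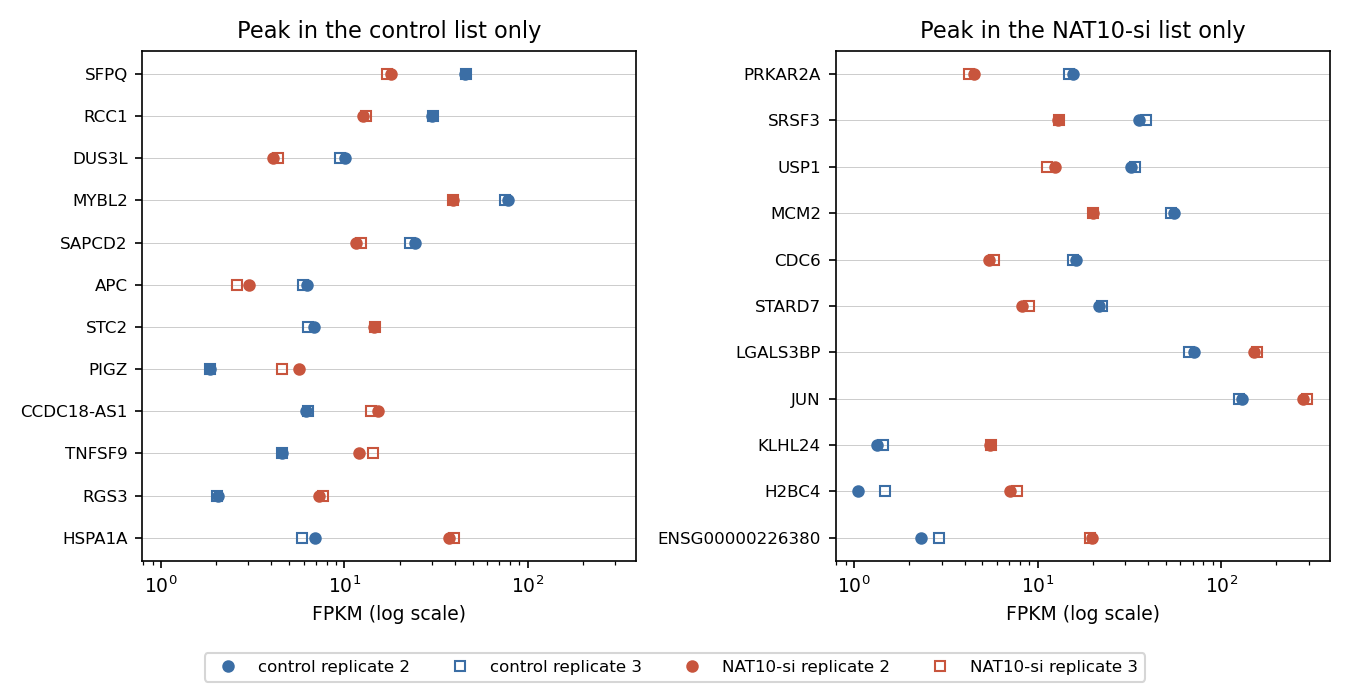
FPKM (horizontal axis, log scale) of the largest falls and rises named in the text among genes with a peak in the control list only (left) and in the NAT10-si list only (right), 1 point per library. The genes were chosen as the largest falls and rises with no overlap between arms. That both directions appear, with the arms apart, follows from this choice.

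Among genes with peaks in both lists, the largest fall was in PPP1R10 and the largest rise in MT-RNR2. PPP1R10 went from 15.4 and 13.9 to 3.48 and 3.31 FPKM (log2 change -1.83, limma adjusted p = 0.00014). EIF5, an initiation factor, went from 22.3 and 23.5 to 7.11 and 6.84 FPKM (log2 change -1.58, limma adjusted p = 0.00011), with peaks 2485 bases apart. MKI67 went from 71.9 and 64.3 to 27.9 and 24.9 FPKM. MAT2A, which makes S-adenosylmethionine, went from 237 and 242 to 377 and 372 FPKM, with peaks 358 bases apart. CD44, a hyaluronan receptor, was at 103 to 106 FPKM in all libraries and had a peak in both arms (limma adjusted p = 0.47).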

How the data were processed

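RNA-seq and acRIP of UM-UC-3 were used. Per the submitters' processing notes, HISAT2 2.1.0, HTSeq 0.6.1 and bcl2fastq 2.19.1 were used, with hg19. Contig names such as GL000009.2 in the lists, and the positions of peaks in genes, place the coordinates in GRCh38. Of peaks matched to a RefSeq gene by symbol and chromosome, 98.2% of 618 in control lay inside that gene in GRCh38.p14. In NAT10-si 97.4% of 607 did. The program that called the peaks, and whether counting used strand, are not given in the sources at hand. A p-value, a score, the log10 of the p-value and of its false discovery rate, and a fold enrichment (ratio) accompany each peak per the file headers. The lists give no counts, so the depth behind a peak is unknown. The authors' deposited expression values were read as FPKM. Whole reads were recovered for 27570 of 27571 genes above 0 in at least 2 libraries (relative tolerance 4e-09); a factor common to a gene is lost.

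Coordinates were counted from 1. Place in the gene used the midpoint of the peak span and RefSeq entries matched by symbol and chromosome. The limma-trend fit (limma 3.58.1, R 4.3.3) used log2(FPKM + 1) for the 14004 genes whose mean was 1 FPKM or more, Benjamini-Hochberg adjustment at 0.05, without a replicate block. It was tested on simulated data. Fold changes on this scale understate the change of low genes. Shares have Wilson 95% intervals.

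The members, the gene lists and the rule for named genes were chosen with earlier results of these data known. The rule took the highest folds, the genes with most peaks, overlapping peaks, list members, the most blocks and greatest widths, the 6 largest rises and 6 largest falls per class (mean of 3 FPKM or more, no overlap between arms), the highest FPKM, and NAT10, THUMPD1, AHNAK, BCL9L, SOX4 and AKT1. Some genes within the rule are not reported here; NEAT1, EIF5, MAT2A and CD44 were chosen from the shared genes after their values were seen. Alternatives changed the pseudocount (0.1), the filter, the block, the libraries, the overlap, the false discovery rate (0.01), peaks at or above the median fold, the peak point, gene length and the FPKM level.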

Additional observations from a re-analysis of the deposited data

How the results depend on the processing

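Calls across all genes stayed within 1.5 times the reported count under every fit, with 2812 to 3339 higher and 2750 to 3438 lower when a library was left out. Deviations of control replicate 2 and NAT10-si replicate 2 from their arm means had a correlation of 0.013 over genes. With 2 libraries per arm this cannot show whether libraries of the same replicate number were made together. With the replicate block 3664 genes were higher and 3630 lower. Of genes in both lists, 10 were higher; the count was 5 with no filter on low values and between 5 and 8 with a library left out. With a reciprocal overlap of 50%, 1.75% of control and 1.80% of NAT10-si peaks were shared. Among peaks at or above the median fold of each list these shares were 0.848% and 0.872%, and 2.12% and 2.13% of genes were shared. The median genomic span was 235 bases in control and 238 in NAT10-si, and the median width above the median fold was 210 bases in control and 181 in NAT10-si. There, 34.2% of control and 29.9% of NAT10-si peaks had more than 1 block, the opposite order to all peaks. In genes under 20 kb the last 20% of the gene held 30.4% of control and 25.1% of NAT10-si peaks. Peak genes reached 0.1 FPKM in 77.7% and 85.6% of cases, 5 FPKM in 47.1% and 59.2%, and 1 FPKM above the median fold in 62.1% and 68.7%. The cause was not tested in any of these. With 1 list per arm, no difference between lists has a replicate.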
